A study of Chlorocebus sabaeus with 45 samples.

Results

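The 10 genes described here encode immune checkpoint and costimulatory receptors: CTLA4, PDCD1, LAG3, TIGIT, HAVCR2, BTLA, CD160, CD244, CD28 and ICOS. They were taken by gene symbol from the 33994 genes listed for each sample, and all 10 were among the 18753 genes that passed the filter on low values (over 0.5 CPM, fragments relative to the library total, in 3 or more samples). Whole blood was drawn from 15 juvenile male vervet monkeys (Chlorocebus sabaeus) of the Caribbean island of St. Kitts, each sampled on day 0, day 3 and day 14, which gave 45 libraries. The animals were wild-born. The labels count the days after exposure to the stressor, and the paper counts them from capture. Day 0 was the field baseline, sampled no more than 15 minutes after trapping under ketamine with xylazine. On days 3 and 14 the animals lived in individual quarantine housing and were sedated with dexmedetomidine and midazolam. Time since capture, relocation, housing, place and sedation therefore changed together, and the part of each in a difference from day 0 cannot be told apart. No group stayed in the field, and the labels give day 14 for the last samples where the design text of the series gives day 15.

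Costimulatory and checkpoint receptors set how strongly a T cell or natural killer (NK) cell responds once its antigen receptor or activating receptors are engaged. CD28 delivers the main costimulatory signal on binding CD80 or CD86, CTLA4 competes with it for the same ligands and restrains the cell, and ICOS, a relative of both, binds ICOSLG and helps T cells that support antibody responses. PD-1 (PDCD1), LAG3, TIGIT and TIM-3 (HAVCR2) are inhibitory receptors that appear on activated T cells and stay high on T cells that meet antigen for a long time, and TIGIT and HAVCR2 are also found on NK cells. BTLA, abundant on B cells as well as T cells, and CD160, found on NK and cytotoxic T cells, share the ligand HVEM (TNFRSF14), while CD244 binds CD48 and is carried by NK cells, some CD8 T cells and monocytes. In whole blood, a lower level of such a transcript from fewer cells of a type and from less RNA per cell cannot be told apart.

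Levels are FPKM, fragments divided by gene length and library total, made comparable between libraries with TMM factors (trimmed mean of M values) and called scaled FPKM below. The libraries held 13216275 to 31469332 fragments on genes and between 20008 and 31402 genes above 0. The libraries of animal 9 on day 0 and animal 4 on day 14 stood apart with 30752 and 31402 genes above 0, where the next had 26792 (animal 11 on day 0), and results were repeated without them. TMM removed a shift between time points: over all tested genes, the median difference on the log2 scale between day 14 and day 0 was −0.02 with it and −0.36 without it, and between day 14 and day 3 it was −0.02 and −0.35. All changes below are relative to the typical gene in this sense. They come from a limma fit across all tested genes with the animal as a block, two-sided, with the Benjamini-Hochberg adjustment made over all 18753 genes, and a change was called at an adjusted p under 0.05. The 3 comparisons share samples in pairs, so each is given by its own values.

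On day 0 the costimulatory receptors CD28 and ICOS were the most abundant of the 10 transcripts, and LAG3 and CD160 the least. CD28 had a mean of 37.7 ± 8.32 scaled FPKM (SD, n = 15), followed by ICOS with 26.6 ± 6.95, CD244 with 25.2 ± 12 and BTLA with 19.9 ± 6.96. TIGIT (6.07 ± 2.77) and CTLA4 (5.35 ± 1.60) came next, and PDCD1 (2.28 ± 0.832), HAVCR2 (1.34 ± 0.622), LAG3 (0.589 ± 0.262) and CD160 (0.242 ± 0.251) closed the order. Of its neighbouring pairs, 3 (ICOS and CD244, CD244 and BTLA, and TIGIT and CTLA4) differed by less than the SD of their difference over the 15 animals, and the other 6 neighbouring pairs by more. CD28 was above ICOS in 15 of 15 animals, by 0.51 ± 0.21 on the log2 scale. The counts behind the low end were small: on day 0 CD160 rested on a median of 14 fragments per library and as few as 1, and LAG3 on a median of 29, against 5627 for CD28. On day 14 CD244 (29.2 ± 9.1) ranked above ICOS (23.0 ± 3.67), and HAVCR2 (2.69 ± 1.42) had reached PDCD1 (2.68 ± 1.02). Both pairs differed there by less than their spread. FPKM are per gene length, so these levels can be set side by side.

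**Figure D1:**
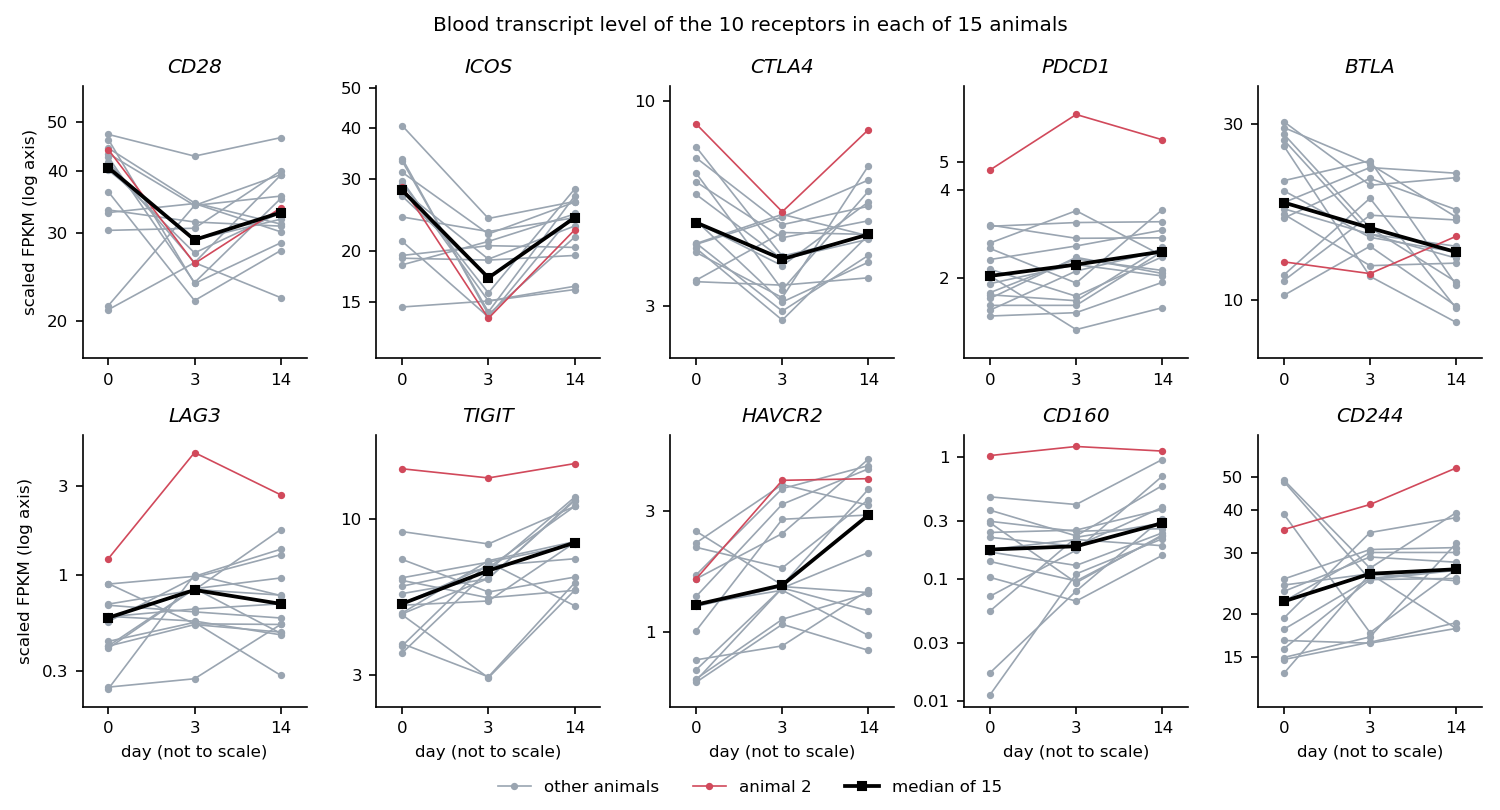
Scaled FPKM (log axis) of each receptor on days 0, 3 and 14, with a line for each of the 15 animals, animal 2 in red and the median as black squares. The medians of CD28, ICOS and CTLA4 dip on day 3, those of TIGIT, HAVCR2 and CD160 end above day 0, and animal 2 lies at the top for CTLA4, PDCD1, LAG3, TIGIT and CD160 on all 3 days. Without TMM the rises on day 14 were smaller (see the plot of other scalings).

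On day 3 vs. day 0, 3 of the 10 receptors fell and 2 rose, where 9.30% of all tested genes fell and 10.3% rose. The 3 that fell were ICOS, CTLA4 and CD28, related receptors of which ICOS and CD28 costimulate and CTLA4 restrains the cell. The 2 that rose were the inhibitory receptors HAVCR2 and LAG3. PDCD1, TIGIT, BTLA, CD160 and CD244 had log2 fold changes between −0.16 and 0.13 and did not pass the test. The median over the 10 was 0.07, beside 0.01 for all tested genes.

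ICOS fell most. Its lowest, median and highest scaled FPKM over the 15 animals were 14.6, 28.1 and 40.4 on day 0, 13.7, 17.2 and 24 on day 3, and 16.1, 24.1 and 28.3 on day 14. The time points overlapped, but the day 3 median lay near the bottom of the day 0 range, and 12 of 15 animals were lower on day 3 than on day 0. The log2 fold change was −0.55 (standard error 0.10, adjusted p = 4.14e-04 from limma). From day 3 to day 14 ICOS rose by 0.38 (standard error 0.10, adjusted p = 0.0078) in 14 of 15 animals, and on day 14 vs. day 0 it stood at −0.17 (adjusted p = 0.161).

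CTLA4, the inhibitory counterpart of CD28, went through the same course. It ranged from 3.46 to 8.75 scaled FPKM on day 0 with a median of 4.90, from 2.76 to 5.22 on day 3 with a median of 3.95, and from 3.54 to 8.46 on day 14 with a median of 4.57. The day 3 fall (−0.39 on the log2 scale, standard error 0.10, adjusted p = 0.00643) was seen in 12 of 15 animals, and the rise from day 3 to day 14 (0.36, standard error 0.10, adjusted p = 0.0108) in 13. On day 14 vs. day 0 the difference was −0.03 (adjusted p = 0.826), with 7 animals higher and 8 lower. The day 3 to day 14 rises of ICOS and CTLA4 were both lost in 3 other fits. Without TMM they had −0.00 (adjusted p = 0.989) and −0.01 (0.954), with RNA integrity added as a covariate 0.31 (0.0579) and 0.29 (0.0768), and with the NK cell marker level 0.10 (0.678) and 0.11 (0.664). CTLA4 was also not called with the B cell marker level (0.36, adjusted p = 0.0694) or without the animal block (0.36, 0.0506).

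CD28 itself ranged from 21.1 to 47.3 scaled FPKM on day 0 with a median of 40.6, from 22.0 to 42.8 on day 3 with a median of 29.1, and from 22.3 to 46.6 on day 14 with a median of 33.0. The ranges overlapped almost wholly, and the shift was in the middle of the distribution. It fell on day 3 in 11 of 15 animals (−0.32, standard error 0.09, adjusted p = 0.0143). Neither its difference from day 3 to day 14 (0.18, adjusted p = 0.16) nor that from day 0 to day 14 (−0.14, adjusted p = 0.221) passed the test. The falls of all 3 genes on day 3 stayed called with each animal left out in turn, with the T cell marker level as a covariate and with FPKM scaled to the T cell markers in place of TMM. Without TMM, CD28 on day 3 had −0.36 and an adjusted p of 0.101.

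General T cell markers were not called beside the day 3 falls. Of the 10 genes on the T cell marker list, 9 were measured (CD3D, CD3E, CD3G, CD2, CD5, CD6, THEMIS, UBASH3A and BCL11B), limma called 0 of them on day 3 vs. day 0 (1 at an unadjusted p under 0.05, and the same with limma-voom), and their log2 fold changes ran from −0.29 to 0.12 with a median of 0.02. Their summed level ranged from 219 to 481 scaled FPKM on day 0, from 226 to 468 on day 3 and from 337 to 517 on day 14. From day 3 to day 14, when ICOS and CTLA4 rose, 3 of these 9 markers also rose and 0 fell (median −0.06), beside 14.2% and 9.83% of all tested genes. The 3 were CD3D (0.58), CD2 (0.39) and CD3G (0.29). Of the CD4 and CD8 coreceptors, CD8A, which NK cells can also carry, was called higher on day 3 (0.38, adjusted p = 0.00366, 12 of 15 animals), while CD4 had 0.01 (adjusted p = 0.969) and CD8B −0.05 (0.791). Then CD4 had −0.18 (adjusted p = 0.24) on day 14 vs. day 0, CD8B had −0.09 (adjusted p = 0.531), and CD8A was higher by 0.46 (standard error 0.09, adjusted p = 1.09e-04).

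Ratios of receptors in the same library do not depend on the scaling between libraries. The ICOS to CD28 ratio had medians of 0.695, 0.62 and 0.691 on the 3 days. Its change from day 0 was −0.23 ± 0.26 on day 3 (log2 scale, SD, n = 15), with 13 of 15 animals lower, and that from day 3 to day 14 was 0.20 ± 0.18 (higher in 13). The first of these changes was smaller than its SD. The CTLA4 to CD28 ratio had medians of 0.144, 0.132 and 0.15 on the 3 days. Its change from day 0 was −0.07 ± 0.31 on day 3 and 0.11 ± 0.30 on day 14, and that from day 3 to day 14 was 0.18 ± 0.23 (higher in 12 of 15), all smaller than their SD. The TIGIT to CD28 ratio had medians of 0.149, 0.21 and 0.266, and was above its day 0 value in 13 of 15 animals on day 3 and in 14 of 15 on day 14 (0.45 ± 0.38 and 0.71 ± 0.47 on the log2 scale). From day 3 to day 14 it was higher in 10 of 15 (0.26 ± 0.42).

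**Figure D2:**
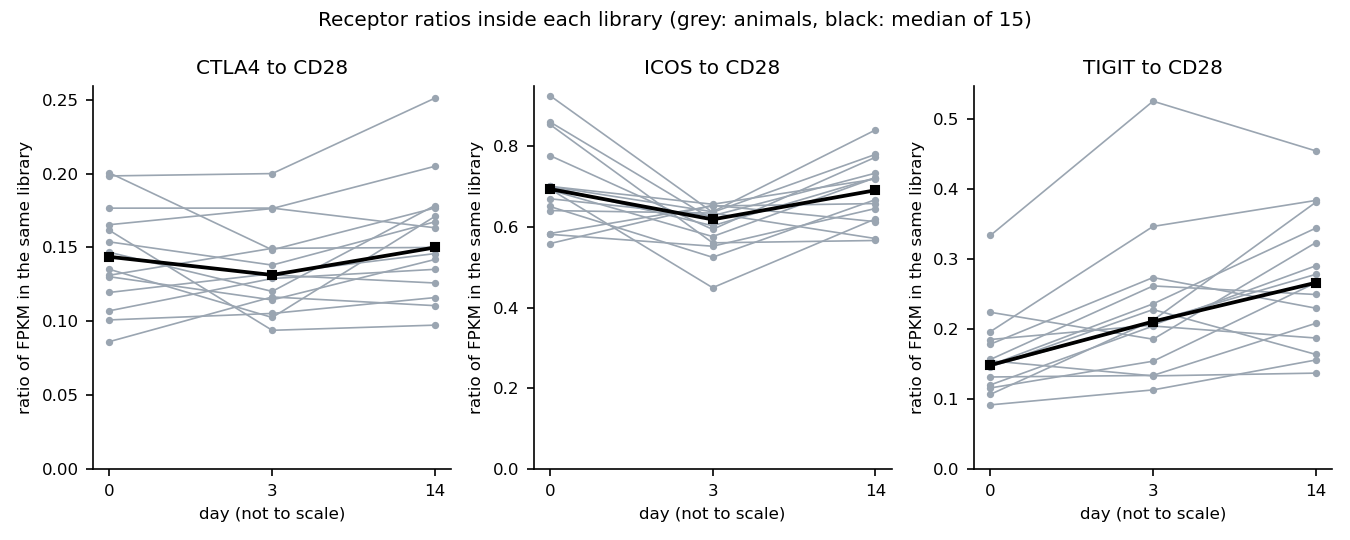
Ratio of the FPKM of 2 receptors in the same library (linear axes from 0) on days 0, 3 and 14, with a grey line for each animal and black squares for the median of 15. The ICOS to CD28 ratio is lower on day 3 than on day 0 in 13 of 15 animals, with a change smaller than its SD, the CTLA4 to CD28 changes are also smaller than their SD, and the TIGIT to CD28 ratio is above day 0 on day 14 in 14 of 15.

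On day 14 vs. day 0, 5 of the 10 receptors rose and 1 fell, where 23.2% of all tested genes rose and 21.1% fell. HAVCR2, CD160, TIGIT, LAG3 and PDCD1 rose, and BTLA fell. CTLA4, CD28, ICOS and CD244 did not pass the test. The median over the 10 was 0.25, beside −0.02 for all tested genes. On day 14 vs. day 3, 4 rose (CD160, TIGIT, ICOS and CTLA4) and 0 fell, beside 14.2% and 9.83% of all tested genes. At an unadjusted p under 0.05 limma had 1 receptor lower in that comparison, BTLA (−0.29, adjusted p = 0.1), and limma-voom on the recovered fragments likewise called 4 higher and 0 lower, with 1 lower unadjusted.

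HAVCR2 (TIM-3) had the largest log2 fold change of the 10 on day 14 vs. day 0 with 0.1 or 1 added before the logarithm. With 0.01 added it had 0.92 and CD160 1.11. The HAVCR2 lowest, median and highest scaled FPKM were 0.631, 1.28 and 2.5 on day 0, 0.879, 1.53 and 3.98 on day 3, and 0.844, 2.90 and 4.83 on day 14. The day 14 median was above the highest value of day 0, although the lowest animals stayed inside the day 0 range. It was higher on day 3 in 13 of 15 animals (0.62, standard error 0.14, adjusted p = 0.00316) and on day 14 in 14 of 15 (0.87, standard error 0.14, adjusted p = 1.38e-05). Day 14 vs. day 3 did not pass the test (0.25, adjusted p = 0.197).

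TIGIT ranged from 3.56 to 14.7 scaled FPKM on day 0 with a median of 5.20, from 2.94 to 13.7 on day 3 with a median of 6.71, and from 5.12 to 15.3 on day 14 with a median of 8.32. The highest value was animal 2 on every day, and the highest of the other 14 animals was 9.06, 8.24 and 11.8 on days 0, 3 and 14. The day 14 rise (0.57, standard error 0.12, adjusted p = 2.25e-04) was seen in 13 of 15 animals, and that from day 3 to day 14 (0.44, standard error 0.12, adjusted p = 0.00816) in 14. On day 3 vs. day 0 it had 0.13 (adjusted p = 0.481). The call from day 3 to day 14 was lost without TMM (0.06, adjusted p = 0.759) and without the animal block (0.44, 0.0886). It was also lost with RNA integrity as a covariate (0.35, 0.0655) and with the NK cell marker level (0.10, 0.745).

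CD160 had the lowest level of the 10. It ran from 0.0113 to 1.02 scaled FPKM on day 0 with a median of 0.174, from 0.0659 to 1.21 on day 3 with a median of 0.185, and from 0.156 to 1.11 on day 14 with a median of 0.286. Its lowest value on day 0 was 1 fragment, and the part of counting error in its spread was not tested. It rose on day 14 vs. day 0 (0.68, standard error 0.15, adjusted p = 5.88e-04) and vs. day 3 (0.63, standard error 0.15, adjusted p = 0.00464), in 13 of 15 animals each. The size depended on the value added before the logarithm: vs. day 0 it was 0.18 with 1 added and 1.11 with 0.01, both called.

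LAG3 and PDCD1 moved less surely. LAG3 had medians of 0.584, 0.825 and 0.694 scaled FPKM on days 0, 3 and 14, with ranges of 0.241 to 1.22, 0.273 to 4.57 and 0.285 to 2.70. Its rise was 0.45 on day 3 (standard error 0.16, adjusted p = 0.0405, 12 of 15 animals) and 0.44 on day 14 (standard error 0.16, adjusted p = 0.0238, 11 of 15). The day 3 call was lost without animal 1, 2, 4, 10, 11, 12 or 15, each alone (log2 fold change down to 0.36 without animal 2), and the day 14 call without animal 4, 6, 11 or 15. PDCD1 had medians of 2.04, 2.23 and 2.47 scaled FPKM with ranges of 1.49 to 4.68, 1.34 to 7.23 and 1.59 to 5.93, and rose on day 14 by 0.22 (standard error 0.09, adjusted p = 0.0485) in 12 of 15 animals. That call remained in only 2 of the 15 fits that left out 1 animal, those without animal 1 or animal 8, and was lost without the 2 libraries that stood apart (0.20, adjusted p = 0.107).

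BTLA was the 1 receptor called lower on day 14. It ranged from 10.3 to 30.5 scaled FPKM on day 0 with a median of 18.4, from 11.6 to 23.9 on day 3 with a median of 15.7, and from 8.7 to 22.1 on day 14 with a median of 13.5. The ranges overlapped, and 11 of 15 animals were lower on day 14 (−0.45, standard error 0.13, adjusted p = 0.00573). CD244 ranged from 13.4 to 48.9, from 16.4 to 41.5 and from 18.1 to 53.0 scaled FPKM with medians of 21.7, 26.1 and 26.9, and its difference on day 14 (0.28, standard error 0.13, adjusted p = 0.0823, higher in 11 of 15) did not pass the test. CD244 was called when animal 7, 8, 11 or 15 was left out (up to 0.36, adjusted p = 0.02, without animal 15) and with the T cell marker level as a covariate (0.33, adjusted p = 0.0163).

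**Figure D3:**
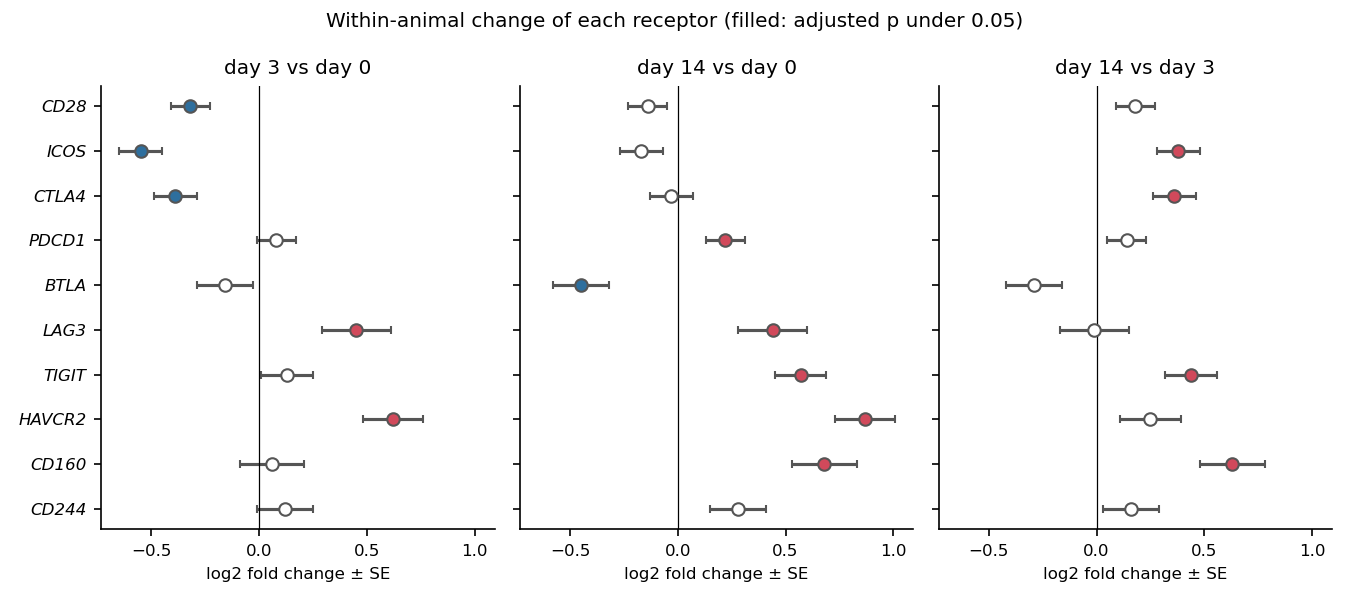
Log2 fold change with its standard error for each receptor in the 3 comparisons, from the limma fit with the animal as a block on TMM-scaled values, filled where the adjusted p is under 0.05 (red higher, blue lower). ICOS, CTLA4 and CD28 are blue on day 3 vs. day 0 and open on day 14 vs. day 0, HAVCR2 lies highest in both comparisons with day 0, and BTLA is the only blue point on day 14. Without TMM, PDCD1 and CD244 turn below 0 on day 14 vs. day 0, and CTLA4, PDCD1, HAVCR2, CD244, CD28 and ICOS on day 14 vs. day 3.

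The scaling decided which receptors were called on day 14. Without TMM the 5 called receptors were BTLA (−0.87), ICOS (−0.60), CD28 (−0.57), CTLA4 (−0.45) and HAVCR2 (0.48), and PDCD1 (−0.18) and CD244 (−0.14) changed sign. In that fit 9.28% of all tested genes were called higher and 49.8% lower, so 1 receptor higher and 4 lower are shares near or below those of all genes. TIGIT lost its calls, with 0.15 (adjusted p = 0.433) vs. day 0 and 0.06 (0.759) vs. day 3, as did CD160, with 0.38 in both (0.0517 and 0.0597), and LAG3 had 0.09 (0.714) vs. day 0. HAVCR2 rose and BTLA fell under both scalings. With FPKM scaled to the T cell markers in place of TMM, HAVCR2 0.82, CD160 0.65, TIGIT 0.52, LAG3 0.40 and BTLA −0.50 were called on day 14 vs. day 0, while PDCD1 lost its call (0.17, adjusted p = 0.165) and CTLA4 (−0.08), CD28 (−0.19) and ICOS (−0.22) were not called. With the RNA integrity number of each sample as a covariate beside the animal block, HAVCR2 (0.72, adjusted p = 0.00545) and CD160 (0.68, adjusted p = 0.0156) were called on day 14, TIGIT had 0.39 (adjusted p = 0.0514), and BTLA had −0.39 (adjusted p = 0.104). Of all tested genes, 13% were called higher and 9.07% lower there, against 23.2% and 21.1% without this covariate. The RNA integrity number was higher on day 14 than on day 0 in most animals and lower in no animal, so it overlaps with the day. On day 3 the falls of ICOS (−0.61), CTLA4 (−0.46) and CD28 (−0.35) and the rise of HAVCR2 (0.54) were called in that fit.

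**Figure D4:**
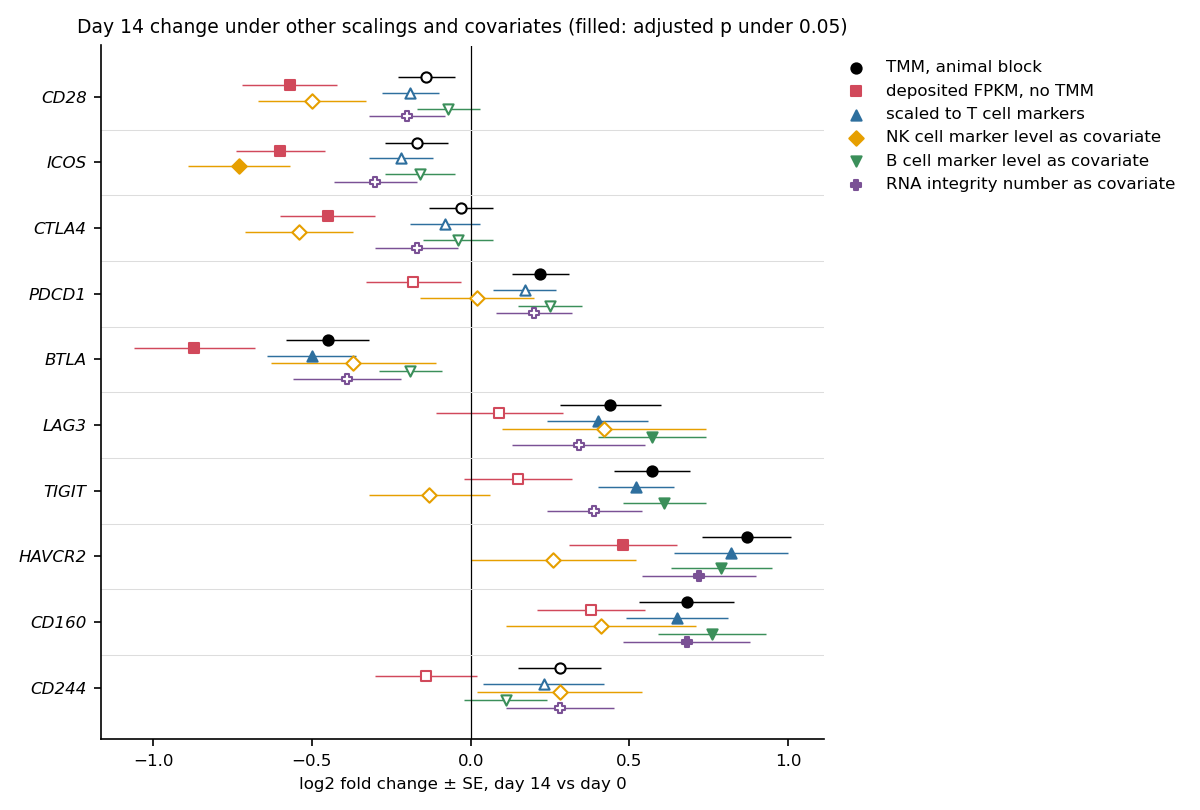
Log2 fold change with its standard error on day 14 vs. day 0 for each receptor under 6 fits, filled where the adjusted p is under 0.05. Values without TMM (red squares) lie to the left of those with TMM (black) throughout, with PDCD1 and CD244 below 0, and those with the NK cell marker level as a covariate (orange diamonds) move TIGIT, HAVCR2 and PDCD1 toward 0 and ICOS, CD28 and CTLA4 down.

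Markers of other blood cells moved over the same days. All 9 genes of the NK cell list were measured, of which 7 rose on day 14 vs. day 0 (median 1.14), 6 rose on day 3 (median 0.52) and 4 rose from day 3 to day 14 (median 0.40). Their summed level ranged from 111 to 636 scaled FPKM on day 0, from 221 to 831 on day 3 and from 304 to 1450 on day 14. KLRF1, an NK cell receptor, rose by 1.32, and KLRD1, NKG7, GNLY, PRF1 and GZMB, which cytotoxic T cells also make, rose by 1.04 to 1.52, while NCR1 had 0.44 (adjusted p = 0.0997) and NCAM1 stayed low, with a mean of 0.171 and 0.207 scaled FPKM on days 0 and 14. With the NK cell marker level as a covariate, a fit added after the values were seen, TIGIT on day 14 vs. day 0 had −0.13 (adjusted p = 0.788), HAVCR2 0.26 (0.658), CD160 0.41 (0.493), LAG3 0.42 (0.507) and PDCD1 0.02 (0.973), with standard errors of 0.18 to 0.32. On day 3 both rises lost their call, with HAVCR2 at 0.31 (adjusted p = 0.272) and LAG3 at 0.44 (0.186), and the 3 falls were larger: ICOS −0.83 (adjusted p = 8.03e-05), CTLA4 −0.65 (0.00141) and CD28 −0.50 (0.00695). On day 14 vs. day 0, ICOS was the 1 receptor called in this fit, lower at −0.73 (adjusted p = 0.0123), and BTLA had −0.37 (0.475).

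BTLA and 2 B cell markers were called lower on day 14 vs. day 0. Of the 6 B cell markers measured, 0 were called on day 3 vs. day 0 (median 0.24), where BTLA had −0.16. From day 3 to day 14, 4 fell (median −0.71), where BTLA had −0.29, and on day 14 vs. day 0, 2 fell (median −0.40). PAX5 was 1 of these 2 (−0.91, adjusted p = 0.00187), while MS4A1 was not called (−0.33, adjusted p = 0.11). The summed level of the 6 markers ranged from 73.0 to 484 scaled FPKM on day 0 and from 131 to 323 on day 14. With the B cell marker level as a covariate, also added after the values were seen, BTLA had −0.19 (standard error 0.10, adjusted p = 0.15) on day 14 vs. day 0 and 0.08 (adjusted p = 0.679) on day 14 vs. day 3, but was called lower on day 3 vs. day 0 (−0.27, adjusted p = 0.0388), where it had −0.16 (0.428) without the covariate. In that fit TIGIT (0.61), HAVCR2 (0.79), CD160 (0.76) and LAG3 (0.57) stayed called on day 14 vs. day 0, while PDCD1 lost that call (0.25, adjusted p = 0.054) and LAG3 its call on day 3 (0.40, 0.067). Of the other lists on day 14 vs. day 0, 8 of 8 neutrophil markers fell (median −1.15), as did 3 of 7 monocyte markers (−0.43), while 7 of 7 reticulocyte and erythroid (2.82), 5 of 5 proliferating cell (1.28), 4 of 5 platelet (0.80), 2 of 4 basophil and eosinophil (0.59) and 1 of 5 dendritic cell markers (0.16) rose. On day 14, 2 T cell markers rose and 1 fell (median −0.02), and 1 of the 3 coreceptors rose (median −0.09). On day 3, 6 of 8 neutrophil markers had already fallen (median −0.88), and 5 of 5 platelet (1.44), 5 of 7 reticulocyte and erythroid (1.30), 3 of 5 proliferating cell (0.55) and 2 of 7 monocyte markers (0.11) had risen. The part of these lists in the receptors' changes was not tested beyond the T, NK and B cell covariates.

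One animal carried high levels of 5 of the receptors from the start. Animal 2 had the highest scaled FPKM of all 15 animals on each of the 3 days for CTLA4, PDCD1, LAG3, TIGIT and CD160, a pattern picked out after the values were seen. Among all 18753 tested genes, the same animal was highest on all 3 days for 5.11%, and animal 2 was for 0.368%. Its CD160 level was 1.02, 1.21 and 1.11 scaled FPKM on days 0, 3 and 14, against medians of 0.170, 0.178 and 0.272 in the other 14 animals. Its PDCD1 level was 4.68, 7.23 and 5.93, where the next highest animal had 3.04, 3.40 and 3.43. LAG3 in this animal went from 1.22 to 4.57 and 2.70, with 0.893, 0.999 and 1.75 in the next highest. CTLA4 was closer, at 8.75, 5.22 and 8.46 against 7.64, 5.14 and 6.84, with almost no gap on day 3.

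The other 5 receptors did not follow 1 pattern in this animal. CD244 was the highest of all animals on days 3 and 14 (41.5 and 53, next highest 34.4 and 39.3) and HAVCR2 on day 3 only (3.98, next highest 3.83). BTLA was below the median of the others on days 0 and 3 (12.7 and 11.8 against 19.1 and 16.3) and above it on day 14. CD28 in animal 2 was 44.1, 26.1 and 33.7 scaled FPKM against medians of 40.4, 29.9 and 32.5 in the others, and its ICOS on day 3 (13.7) was the lowest of the 15. Its mean log2 level of the T cell markers ranked 8, 3 and 3 from the highest on the 3 days, and that of the NK cell markers ranked 1, 2 and 1. Without animal 2, LAG3 on day 3 (0.36, adjusted p = 0.12) and PDCD1 on day 14 (0.21, adjusted p = 0.0671) were no longer called, and the other calls on the 10 receptors were kept.

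The 10 genes also differed in how much of their variation lay between animals. For PDCD1 the SD of the animal means was 0.44 on the log2 scale and the SD within animals, after removal of the time point means, 0.23, a ratio of 1.93. The ratio was 1.66 for CD160, 1.63 for HAVCR2, 1.40 for LAG3 and 1.31 for TIGIT, beside a median of 0.78 over all tested genes. CD28 (0.83), ICOS (0.79) and BTLA (0.84) were near that median, with CTLA4 (0.99) and CD244 (1.03) in between. The animal means of CD160 and LAG3 spanned 2.64 and 2.57 on the log2 scale and those of ICOS 0.95. Animal 2 had the highest mean for PDCD1, LAG3, TIGIT, CD160, CTLA4 and CD244, and without it, an alternative added after the values were seen, the ratio was 1.23 for PDCD1, 1.17 for CD160, 0.98 for LAG3 and 0.94 for TIGIT, beside a median of 0.79 over all tested genes. HAVCR2, which was highest in animal 5, kept 1.58. The span of the animal means was then 0.87 for PDCD1, 1.42 for LAG3, 1.17 for TIGIT and 1.79 for CD160.

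Within animals, the receptors fell into a tight set and looser ones. Over the 45 samples, with the mean of each animal removed, log2 levels of CD28 and ICOS correlated with r = 0.87, CTLA4 and ICOS with 0.86 and CTLA4 and CD28 with 0.79, all described across samples that share animals and scaling, with no test. The time point means were kept, so a shift between days that genes share enters each r given here and below. CD28, CTLA4 and ICOS lie next to each other in the gene order of the RefSeq vervet assembly mChlSab1.0.hap1. HAVCR2 varied with CD244 (0.59), TIGIT (0.52) and PDCD1 (0.48) and against BTLA (−0.54) and CD28 (−0.47). TIGIT varied with CD160 (0.56) and PDCD1 (0.54). Set against the mean of marker lists, TIGIT (0.80), HAVCR2 (0.79) and CD160 (0.60) followed the NK cell list, and the same 3 also followed the proliferating cell list (0.56, 0.57 and 0.60). BTLA followed the B cell list (0.75) and ran against the proliferating cell list (−0.67), CD28 followed the T cell list at 0.53, and CD28, ICOS and CTLA4 ran against the monocyte list (−0.60, −0.64 and −0.60).

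**Figure D5:**
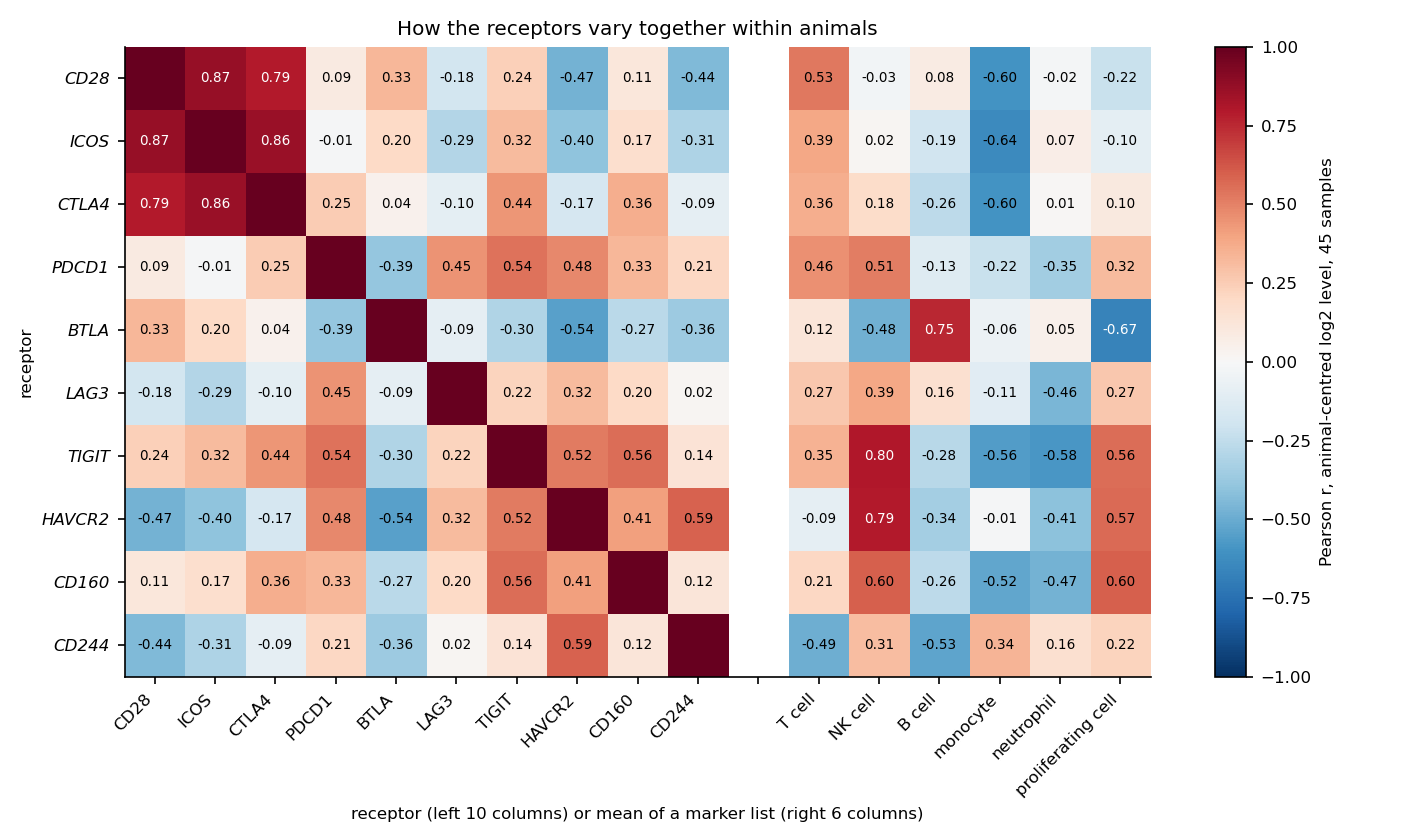
Pearson r over 45 samples of animal-centred log2 levels between the receptors (left 10 columns) and with the mean of 6 marker lists (right 6 columns), red positive and blue negative. The time point means were kept, so shared shifts between days enter each r. CD28, ICOS and CTLA4 form a block of 0.79 to 0.87, TIGIT and HAVCR2 reach 0.80 and 0.79 with the NK cell list, and BTLA reaches 0.75 with the B cell list.

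By the same measure, the 3 tested genes most like each receptor were as follows. CD28 was most like FAM134B (r = 0.90), VSIG1 (0.88) and ICOS (0.87), ICOS like USP44 (0.89), CDKN2AIP (0.88) and CD28 (0.87), and CTLA4 like ICOS (0.86), FUT8 (0.82) and INPP4B (0.80). TIGIT was most like PCNA, the sliding clamp of DNA replication, GZMK, a granule protease of T and NK cells, and C11H12orf75, each at 0.86. PDCD1 was most like VOPP1 (0.76), the T cell receptor kinase ZAP70 (0.75) and the chemokine receptor CXCR3 (0.74). HAVCR2 was most like LOC103243085 (0.88), OBSL1 (0.85) and LOC103235279 (0.84), and LAG3 like LINGO4 (0.71), TEF (0.70) and RGS3 (0.70). BTLA was most like RALGPS2 (0.88), TSPAN3 (0.87) and KBTBD8 (0.84), and CD160 like SKA2 (0.75), ADAL (0.72) and NDC80 (0.72), the first and last of which act in chromosome segregation. CD244 was most like NCR1, the NK cell receptor NKp46 (0.92), ITLN1 (0.80) and MS4A7 (0.76). With the marker lists CD244 had 0.31 for NK cells, 0.34 for monocytes, 0.16 for neutrophils, 0.22 for proliferating cells, −0.49 for T cells and −0.53 for B cells. ITLN1 is the gene next to CD244 in the same RefSeq order, and its level was 1.51 ± 0.798 scaled FPKM on day 0 and 2.02 ± 0.722 on day 14. The strand setting of the counting was not given in the sources used here, and whether these neighbours share reads was not tested.

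Of the 16 ligands listed for these receptors, 14 were tested, of which 2 rose and 3 fell on day 14 vs. day 0 (median −0.06, all genes −0.02). As in the other 3 lists that follow, these day 14 vs. day 0 counts are shares near or below the 23.2% and 21.1% of all tested genes that rose and fell, which gives no result about the list. PVRL2 (nectin-2), a ligand of TIGIT, rose from 0.591 to 1.86 scaled FPKM in the mean (1.37, standard error 0.21, adjusted p = 4.1e-06, 13 of 15 animals), and had already risen on day 3 (0.94, adjusted p = 0.00208). ICOSLG, the ligand of ICOS, fell from 4.98 to 3.27 (−0.52, standard error 0.14, adjusted p = 0.00328, 13 of 15), and LGALS9, a ligand of TIM-3, from 18.1 to 11.6 (−0.52, standard error 0.15, adjusted p = 0.00437, 14 of 15). PDCD1LG2 (PD-L2), a ligand of PD-1, rose (0.37, adjusted p = 0.0216). The fifth call was CD80 (−0.28, adjusted p = 0.0441), a ligand of CD28 and CTLA4, named outside the rule for this list. PVRL2 was the 1 ligand called on day 3, and ICOSLG the 1 called between days 3 and 14 (−0.61, adjusted p = 0.00286).

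Among 15 other T and NK cell accessory receptors tested, 3 rose and 1 fell on day 14 vs. day 0 (median 0.04). KLRG1, an inhibitory receptor of mature NK and effector T cells, rose from 10.8 to 18.4 scaled FPKM (0.83, standard error 0.14, adjusted p = 1.67e-05, 14 of 15 animals). TNFRSF18 (GITR), a costimulatory receptor (0.38, adjusted p = 0.0227), and the collagen receptor LAIR1 (0.36, adjusted p = 0.00117) rose, and CD200R1, which restrains myeloid cells and T cells, fell (−0.39, adjusted p = 0.00127, 13 of 15). On day 3, LAIR1 (0.30, adjusted p = 0.0133) rose and CD200R1 (−0.45, adjusted p = 0.00157) fell, and between days 3 and 14 KLRG1 (0.46, adjusted p = 0.0186) was the 1 gene called.

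Of 16 signalling proteins tested, 3 rose and 3 fell on day 14 vs. day 0 (median −0.05). The adaptor SH2D1B (EAT-2), which links CD244 and its relatives to signalling in NK cells, rose (0.93, standard error 0.19, adjusted p = 1.62e-04, 13 of 15 animals), as did GRAP2 (GADS), which binds the tail of CD28 (0.87, standard error 0.15, adjusted p = 3.57e-05, 14 of 15). PIK3CD, the lymphocyte PI3-kinase subunit, fell (−0.57, adjusted p = 5.35e-04, 14 of 15), and so did the exchange factor VAV1 (−0.38, adjusted p = 0.03), although 7 animals were higher and 8 lower. By day 3, 2 of the 16 had risen and 1 had fallen, close to the 10.3% and 9.30% of all tested genes, and from day 3 to day 14, 1 rose and 4 fell, beside 14.2% and 9.83% of all tested genes, and the 4 included the inhibitory receptors' phosphatases PTPN6 (SHP-1, −0.41, adjusted p = 0.00694) and PTPN11 (SHP-2, −0.20, adjusted p = 0.0284). PTPN11 had risen on day 3 (0.29, adjusted p = 0.0035, 14 of 15) and stood at 0.08 (0.337) on day 14 vs. day 0.

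Of 15 transcription factors tested, 3 rose and 3 fell on day 14 vs. day 0 (median −0.07). TBX21 (T-bet) and EOMES, which drive the effector programmes of cytotoxic T and NK cells, rose by 1.02 (standard error 0.13, adjusted p = 4.91e-07, 14 of 15 animals) and 0.58 (standard error 0.12, adjusted p = 1.62e-04, 13 of 15). NFATC1, activated by T cell receptor signals, fell (−0.46, adjusted p = 0.00629, 13 of 15) and NR4A1, an early response gene of the same signals, rose at a low level (0.47, adjusted p = 0.0146, mean 0.359 to 0.527 scaled FPKM). TOX, which marks T cells under lasting antigen exposure, had −0.14 (adjusted p = 0.31). By day 3 TBX21 (0.76, adjusted p = 2.72e-04) and EOMES (0.37, adjusted p = 0.0235) had risen and NR4A3 (−0.32, adjusted p = 0.0172) had fallen, and from day 3 to day 14 NFATC1 (−0.54, adjusted p = 0.00511) and TCF7 (−0.54, adjusted p = 0.0277) fell.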

How the data were processed

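Whole-blood RNA was depleted of ribosomal and globin RNA, made into stranded libraries and sequenced in pairs. The authors demultiplexed with bcl2fastq 2.17 (submitters' processing notes), aligned reads with STAR to the Chlorocebus_sabeus 1.1 genome and counted fragments with HTSeq; the strand setting is not given in the sources used here. The deposited values are FPKM for each gene symbol, 1 table per sample, and the unit was read from the values. All 33635 genes above 0 came out as whole fragments (within 0.02 and the rounding of the values), which gave totals of 13216275 to 31469332 and, for the filter, CPM. A gene at 0.5 CPM has between 6.61 and 15.7 fragments, by library size.

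FPKM were divided by TMM factors, 0.1 was added, and log2 values were fitted with limma 3.58.1 in R 4.3.3 (trend, animal as fixed block, 45 samples). Fold changes are on the log2(scaled FPKM + 0.1) scale and understate changes of low genes. The animal numbers pair the samples: after removal of time point means, samples of 1 animal correlated with a mean r of 0.328 (0.194 to 0.506 by animal), those of different animals with −0.0231. The code was tested on simulated data. Of each gene list, up to 4 called genes with the largest change on day 14 vs. day 0 were named, and for each receptor the 3 most similar genes. The receptors, lists and tests were chosen with earlier results of these data known. The RNA integrity number came from the study's sample table. Alternatives were no block, no TMM, pseudocounts of 1 and 0.01, no filter, covariates, limma-voom on the recovered fragments and leaving out each animal. Summaries used Python 3.11.15.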

Additional observations from a re-analysis of the deposited data

How the results depend on the processing

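ICOS and CTLA4 between days 0 and 3, and HAVCR2 between days 0 and 14, were called in all 24 fits of this paragraph, which include limma-voom, the T cell marker level as a covariate and each animal left out. Pseudocounts of 1 and 0.01 changed no call on a receptor. Without the replicate block, 3, 4 and 1 receptors were called in the 3 comparisons (day 3 vs. day 0, day 14 vs. day 0, day 14 vs. day 3), against 5, 6 and 4 with it, and 2337, 6756 and 2543 genes against 3673, 8300 and 4505. The calls lost were HAVCR2 (adjusted p = 0.107) and LAG3 (0.251) in the first, PDCD1 (0.335) and LAG3 (0.17) in the second, and CTLA4, TIGIT and CD160 in the third. Without TMM, 3 receptors were called on day 3 vs. day 0, beside 13.1% of all tested genes. Between days 3 and 14 that fit called 1 receptor (BTLA) and 9591 genes (51.1%). It reversed PDCD1 (−0.18) and CD244 (−0.14) between days 0 and 14, and between days 3 and 14 CTLA4 (−0.0116), PDCD1 (−0.22), HAVCR2 (−0.11), CD244 (−0.22), CD28 (−0.20) and ICOS (−0.00284). With the RNA integrity number, 2 receptors and 4148 genes (22.1%) were called on day 14 vs. day 0, and 1 receptor and 1900 genes (10.1%) on day 14 vs. day 3. Without a filter 4 receptors were called in each comparison, beside 8.52%, 22.4% and 10.9% of 33635 genes, and the calls lost were LAG3 on day 3 (adjusted p = 0.082) and LAG3 (0.0652) and PDCD1 (0.135) on day 14 vs. day 0.

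The alternatives that follow were chosen after seeing the data. With the NK cell marker level, 3, 1 and 0 receptors were called in the 3 comparisons, the 1 being ICOS (−0.73). Beside them, 1901, 1141 and 494 genes were called, which is 10.1%, 6.08% and 2.63% of all tested genes. This covariate reversed PDCD1 (−0.023), TIGIT (−0.22) and CD160 (−0.0804) on day 3 vs. day 0, TIGIT (−0.13) on day 14 vs. day 0 and HAVCR2 (−0.0505) on day 14 vs. day 3. With the B cell marker level, 1430 genes were called on day 14 vs. day 3, where LAG3 (0.18), BTLA (0.0826) and CD244 (−0.0881) reversed. Scaling to the T cell markers left 1920 genes on day 3 vs. day 0. Other causes of these differences were not tested.

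With each animal left out, the genes called on day 14 vs. day 3 lay between 2818 (without animal 8) and 5239, CD160 on day 3 vs. day 0 between −0.0174 and 0.12, and LAG3 on day 14 vs. day 3 between −0.0992 and 0.0404. Receptors called lay between 4 and 5, 4 and 7, and 4 and 4 of the 10 on day 3 vs. day 0, day 14 vs. day 0 and day 14 vs. day 3. The shares of all tested genes called in these fits were 15% to 20%, 40.4% to 45.8% and 15.2% to 28.1%. On day 14 vs. day 0 the lowest receptor count is thus near the share of all genes. CD160 and LAG3 rest on few fragments, with medians of 14 and 29 per library on day 0, and the part of depth in these ranges was not tested.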
